A study of Rattus norvegicus with 6 samples.

Results

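Ion exchanger, cotransporter and sodium pump genes of the kidney tubule were followed in NRK-52E cells, an established rat line of renal tubular epithelium. The genes were all those whose single symbol in the array annotation belonged to the solute carrier families Slc4, Slc5, Slc8, Slc9, Slc12, Slc20, Slc24, Slc26 or Slc34 or to the Atp1a and Atp1b subunits of the sodium pump. There were 55 such genes among 14217 measured, read by 71 probe sets, and 1 probe set was used per gene, the one with the highest mean over the 6 arrays. No filter on low values was applied, so all 55 entered the test, and other genes of these families were not analysed here. They were split by their mean on the control arrays into 24 genes at 6 or more on the deposited log2 scale and 31 below 6.

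Total RNA of 6 cultures was hybridised to Affymetrix rat arrays. The TGF-β1-treated+shAMPKα2 Knockdown group (3 arrays, here AMPKα2 shRNA) was transduced with a hairpin lentivirus aimed at AMPKα2, which is one of the catalytic subunits of AMP-activated protein kinase, an energy sensor. The TGF-β1-treated+ shCtrl group (3 arrays, here control) received a control lentivirus. Both groups had 10 ng/mL TGF-β1, a cytokine that drives epithelial cells towards a mesenchymal state, for 24 h, and cells without TGF-β1 were not analysed here. The labels call the arrays of a group biological replicates and do not say whether the transduced cells were 1 clone or a pool. If the replicates shared a culture, the p-values measure technical spread.

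Tubule cells move salt with an engine and a set of coupled carriers. The sodium pump, made of an α and a β subunit, keeps sodium low inside the cell. Carriers use that gradient to bring in phosphate (Slc20 and Slc34), glucose, inositol and vitamins (Slc5) or, for some Slc12 members, chloride with potassium. Others use it to exchange sodium for protons (Slc9) or calcium (Slc8 and Slc24). Slc4 carriers move bicarbonate, Slc26 carriers exchange anions such as chloride, sulfate and oxalate, and which of them a cell uses differs along the nephron.

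The values of both groups had a different spread on the arrays, which touches every result here. Over all probe sets the SD was 1.76 to 1.82 on the AMPKα2 shRNA arrays and 2.17 to 2.19 on the control arrays, and dim genes read higher and bright genes read lower with the AMPKα2 hairpin. Of all genes, 85.1% passed limma's test at an adjusted p of 0.05. Among genes with a control mean under 6, 84.6% were higher and 4.02% lower, and among those at 6 or more 18.3% were higher and 64.5% lower. Counts of members are therefore set beside the same shares over all genes of their level, and calls were made under 4 scalings, which are the values as deposited, quantile scaling (every array given the same distribution), loess scaling (cyclic loess, a curve fitted between arrays by level) and median centring (array medians set equal). Over all genes the median change was 0.05, 0.16, 0.09 and -0.17 on the log2 scale under these scalings, in that order. The gene for AMPKα2, Prkaa2, read 6.64, 6.76 and 6.49 with the hairpin and 6.83, 6.79 and 6.89 in the control. Its log2 change of -0.21 (SE 0.09) did not pass as deposited (limma, adjusted p = 0.0552) or under quantile or loess scaling (-0.05 and -0.15) and passed under median centring (-0.42), so groups are named here as labelled. Of 13 tubule epithelial markers measured, 4 had a control mean of 6 or more, among them Krt8 (keratin 8) at 12.49, while Cdh1 (E-cadherin) stood at 4.31 and Epcam at 2.97. The mean level of those 13 was 6.18 to 6.20 on the AMPKα2 shRNA arrays and 5.62 to 5.69 on the control arrays. The mean level of 5 fibroblast markers was 5.35 to 5.48 against 4.55 to 4.58, that of 4 endothelial markers 4.63 to 4.86 against 4.03 to 4.26, and that of 6 immune markers 5.87 to 6.01 against 5.52 to 5.55. For 3 podocyte markers it was 5.77 to 6.09 against 5.97 to 6.15. Of the immune markers, Cd14 was the only one with a control mean of 6 or more (10.78) and fell by 1.70 and in all 4 scalings, while the other 5 were dim and rose as deposited. None of these lists was at 0, no fibroblast or endothelial marker had a control mean of 6 or more, and their part in the changes below was not tested.

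Of the 24 genes with a control mean of 6 or more, 11 rose, 10 fell and 3 did not pass as deposited. That is 45.8% higher and 41.7% lower, against 18.3% and 64.5% of all genes of that level. With the mean of a gene's probe sets in place of the brightest one, the count higher at 6 or more was 6 and the count lower 10. The genes were then also split by that mean, and 31 were higher under 6, where 27 were with the brightest one. Class sizes and shares over all genes were not counted for that split. These counts can therefore not be set beside 24 genes or the shares above. Atp1b2, Slc4a1, Slc24a3 and Slc24a4 still rose, by 0.78, 0.77, 0.84 and 1.16, while Slc4a4 changed by -0.90. Across all 4 scalings 10 of the 24 were higher and 7 lower each time, against 13.4% and 40.3% of all genes at 6 or more. In either direction 82.9% of all genes at 6 or more passed. The counts differed by level within this class. Of the 11 members between 6 and 7, 10 rose and 1 fell, where 78.9% of all genes of that level passed, 47.8% higher and 31.1% lower. In all 4 scalings 9 of these 11 were higher and 0 lower, against 39.0% and 28.7% of all genes there, and 10 of the 11 did not overlap between groups, against 79.5%. The 1 that fell as deposited, Slc20a2, did not pass under quantile or loess scaling. Of the 13 members at 7 or more, 1 rose and 9 fell, a share lower of 69.2% against 72.6% of all genes there, which is near the background (83.8% of genes there passed in either direction). In all 4 scalings 1 of the 13 was higher and 7 lower, against 7.26% and 43.0%, and 11 of the 13 did not overlap between groups, against 87.6%. In RNA of whole cultures, fewer cells expressing a gene and less RNA per cell cannot be told apart. The median change of the 24 was -0.11 as deposited, 0.37 under quantile scaling, 0.38 under loess scaling and -0.32 under median centring, against -0.53, -0.03, -0.07 and -0.75 for all genes at 6 or more.

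**Figure D1:**
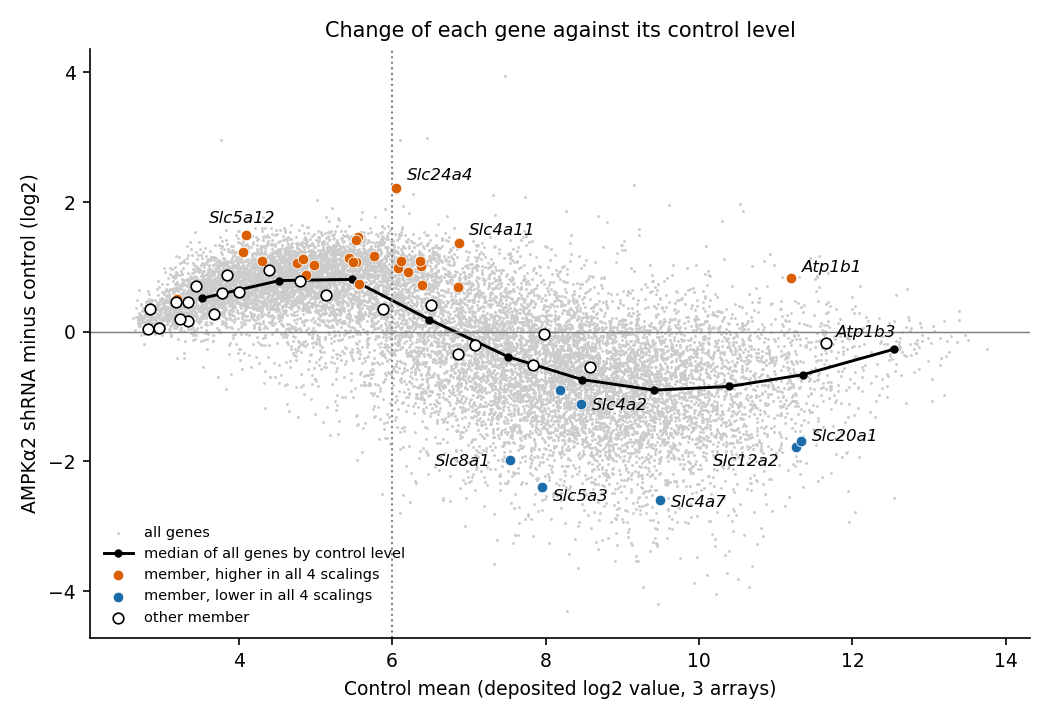
Each grey point is 1 of 14217 genes, with its control mean (deposited log2 value) on the horizontal axis and its change, as log2 of AMPKα2 shRNA minus control, on the vertical axis; larger points are the 55 transporter genes, orange where higher and blue where lower in all 4 scalings and open otherwise, the black line joins the median change of all genes by control level, and the dotted line marks a control mean of 6. Most members under 6 lie near the black line, and Slc24a4 (2.21), Atp1b1 (0.82), Slc4a7 (-2.60), Slc5a3 (-2.39) and Slc8a1 (-1.98) lie far from it.

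The 4 sequences here are the 250 bases before the annotated start of 4 genes with an entry. Of these, Slc5a3 and Slc12a4 fell and Slc24a4 and Slc9a8 rose in all 4 scalings. The sequences come from RefSeq on build GRCr8, in which 47 of the 55 genes had an entry, 17 of them with a control mean of 6 or more. Slc4a7, Slc4a11, Slc20a1 and Atp1b1 were among the genes without one, so the choice was limited by what was available. Slc5a3 lies at chr11:44799537-44799786 on the plus strand, Slc12a4 at chr19:50770123-50770372 on the minus strand, Slc24a4 at chr6:127044220-127044469 on the plus strand and Slc9a8 at chr3:176566875-176567124 on the plus strand. All are written 5′ to 3′ on the gene's strand. Capitals mark any of 4 motifs on either strand. GC boxes, bound by Sp factors, were searched as GGGCGG. The CCAAT box, bound by NF-Y, was searched by the letters of its name. A half-site of the cyclic AMP response element was searched as TGACG. The core of the tonicity element, through which high salt induces osmolyte carriers, was searched as TGGAAA. No motif contains another.
Slc5a3: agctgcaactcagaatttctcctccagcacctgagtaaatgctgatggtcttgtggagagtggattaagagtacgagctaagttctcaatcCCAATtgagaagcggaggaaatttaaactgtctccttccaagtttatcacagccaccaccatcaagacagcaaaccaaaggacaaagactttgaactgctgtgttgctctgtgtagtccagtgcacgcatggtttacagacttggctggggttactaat
Slc12a4: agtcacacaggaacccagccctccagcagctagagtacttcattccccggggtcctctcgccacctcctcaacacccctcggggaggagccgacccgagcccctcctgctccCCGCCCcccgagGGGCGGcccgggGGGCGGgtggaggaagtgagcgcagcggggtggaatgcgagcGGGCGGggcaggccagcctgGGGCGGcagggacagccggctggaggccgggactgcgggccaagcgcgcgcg
Slc24a4: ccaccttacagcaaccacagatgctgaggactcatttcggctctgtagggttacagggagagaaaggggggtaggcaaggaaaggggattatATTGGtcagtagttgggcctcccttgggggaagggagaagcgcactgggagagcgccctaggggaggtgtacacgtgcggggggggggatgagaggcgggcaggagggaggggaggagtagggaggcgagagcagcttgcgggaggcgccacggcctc
Slc9a8: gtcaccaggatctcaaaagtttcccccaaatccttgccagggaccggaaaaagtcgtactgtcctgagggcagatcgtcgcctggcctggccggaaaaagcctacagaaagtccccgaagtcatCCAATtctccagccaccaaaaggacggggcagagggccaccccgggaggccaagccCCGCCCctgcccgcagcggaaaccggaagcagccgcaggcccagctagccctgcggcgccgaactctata
The window of Slc12a4 held 5 GC boxes and that of Slc9a8 held 1, while those of Slc5a3 and Slc24a4 held none and 1 CCAAT box each. G and C made up 74.8% of the Slc12a4 window, 45.2% of that of Slc5a3, 62.8% of that of Slc24a4 and 62.4% of that of Slc9a8. Among the 47 windows of members, 17 held a GC box, 21 a CCAAT box, 5 a half-site and 3 a tonicity core. Among 27456 windows of that length, 32.4% held a GC box, 34.3% a CCAAT box, 19.0% a half-site and 19.5% a tonicity core. Of the genes at 6 or more that moved the same way in all 4 scalings, 5 that fell and 6 that rose had a window, and a GC box was in 2 and 4 of them and a CCAAT box in 2 and 5. These matches describe letters in the windows and are not binding sites.

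The sodium pump β subunits, which fold the pump and bring it to the membrane, did not move alike. Atp1b1, the β1 subunit of tubule cells, read 12.10, 11.97 and 12.005 with the AMPKα2 hairpin and 11.17, 11.22 and 11.21 in the control. All 3 AMPKα2 shRNA arrays lay above all control arrays, and Atp1b1 rose by 0.82 (SE 0.08, limma, adjusted p = 3.24e-06), by 1.16 under quantile scaling and by 1.29 under loess scaling. It was the single member at 7 or more that rose, where 11.3% of all genes rose. Its other probe set, at a control mean of 10.74, rose by 0.21. Atp1b3, the β3 subunit, read 11.56, 11.46 and 11.42 with the hairpin and 11.62, 11.64 and 11.68 in the control. Its groups did not overlap, as in 86.0% of all genes at 6 or more, but the change of -0.17 (SE 0.08) did not pass (limma, adjusted p = 0.0683), and it was 0.30 under loess scaling and -0.39 under median centring, both of which passed in opposite directions. The β1 reading minus the β3 reading was 0.51 to 0.59 on the AMPKα2 shRNA arrays and -0.47 to -0.42 on the control arrays. The change in that difference was 0.99 as deposited, 1.03 under quantile scaling and 0.99 under loess scaling. Both genes stood at like levels, which these scalings shift alike, and median centring cannot alter a difference within an array. The like values are therefore no test of the difference. This pair is 1 of 5 pairs of family members set against each other after their values were seen. Each had an exact permutation p of 0.1, the smallest that 3 arrays against 3 allow, and 0.1 after adjustment over the 5. Atp1b2, the β2 subunit known from glia, rose by 0.92 (SE 0.12) from a control mean of 6.21. Atp1a4, the α subunit of sperm, and Atp1b4, a muscle β-like protein, stood at control means of 2.85 and 3.34, and Atp1a4 rose by 0.35 as deposited but did not pass under the other scalings, while Atp1b4 did not pass under any.

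Bicarbonate carriers of the Slc4 family parted most. Slc4a7, the electroneutral sodium bicarbonate cotransporter NBCn1, which loads base into the cell, read 6.89, 6.90 and 6.90 with the AMPKα2 hairpin and 9.42, 9.59 and 9.48 in the control. The groups lay far apart, and Slc4a7 fell by 2.60 (SE 0.08, log2, limma, adjusted p = 2.22e-09), the largest fall among the 55 members as deposited. The change was -2.06 under quantile and -1.95 under loess scaling, and its other probe set fell by 1.77. At control means between 9 and 10, 82.6% of all genes were lower as deposited. The median change there was -0.90 as deposited and -0.18 under loess scaling. Slc4a2, the chloride-bicarbonate exchanger AE2, read 7.19, 7.47 and 7.40 against 8.63, 8.44 and 8.34 and fell by 1.12 (SE 0.11). Its change was -0.51 under quantile scaling, -0.53 under loess scaling and -1.33 under median centring, and it passed in each. All genes with a control mean between 8 and 9 had a median change of -0.74 as deposited and -0.10 under loess scaling. Slc4a11, a membrane carrier for protons or hydroxide and water known from the corneal endothelium, went the other way, with 8.14, 8.10 and 8.45 against 6.87, 6.85 and 6.89. It rose by 1.36 (SE 0.10, limma, adjusted p = 4.49e-07), by 1.83 under both quantile and loess scaling and by 1.15 under median centring. The Slc4a7 reading minus the Slc4a11 reading changed by -3.96 as deposited and by -3.78 to -3.96 over the 4 scalings. Their control means were 9.50 and 6.87. For all genes at 9 to 10 and at 6 to 7 the median changes as deposited were -0.90 and 0.19. The pair was picked after its values were seen, and median centring cannot alter its difference, so like values over scalings are no test. Slc4a1, the band 3 anion exchanger of red cells and of acid-secreting collecting duct cells, rose by 0.98 (SE 0.13) from a control mean of 6.08, and its other probe set rose by 0.56 from 4.19.

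Slc4a4, the electrogenic sodium bicarbonate cotransporter NBCe1 through which proximal tubule cells return bicarbonate to the blood, gave opposite answers from its 2 probe sets. The probe set used read 6.96, 6.98 and 6.80 against 6.66, 6.53 and 6.33 and rose by 0.41 (SE 0.10, limma, adjusted p = 0.00343), a change that did not pass under median centring (0.19). The other read 4.04, 4.21 and 4.30 with the hairpin and 6.27, 6.51 and 6.37 in the control. It fell by 2.20, although both probe sets had nearly the same control mean, 6.51 and 6.38, and the mean of both changed by -0.90. A direction for Slc4a4 as a gene was thus not settled. Slc4a3, the exchanger AE3, had a change of -0.20 that did not pass as deposited and was -0.41 under median centring. Slc4a1ap, whose product is a nuclear adaptor protein and not a carrier but whose symbol the rule takes in, fell by 0.51 as deposited and had 0.01 under quantile scaling and -0.03 under loess scaling. Slc4a10, a bicarbonate carrier of neurons, stood at 2.82 and did not pass.

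**Figure D2:**
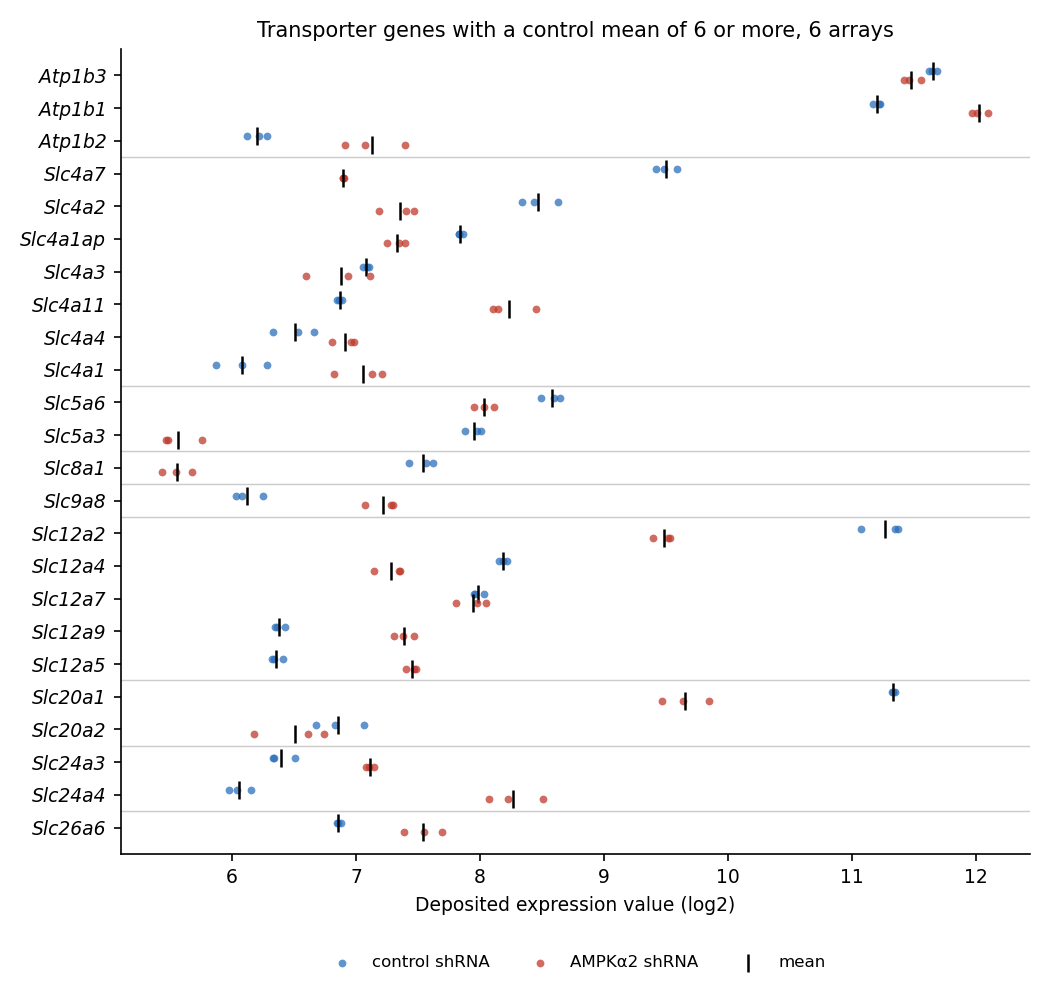
Deposited log2 values (horizontal axis) of the 24 transporter genes with a control mean of 6 or more, grouped by family, with 1 point per array, blue for the 3 control and red for the 3 AMPKα2 shRNA arrays, and a black tick at each mean. The red mean minus the blue mean is -2.60 to -1.68 for Slc4a7, Slc5a3, Slc8a1, Slc12a2 and Slc20a1, and 1.01 to 2.21 for Slc4a11, Slc9a8, Slc12a5, Slc12a9 and Slc24a4.

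Chloride cotransporters of the Slc12 family take chloride into the cell with sodium (NKCC1) or out of it with potassium (the KCC carriers). Slc12a2, which encodes NKCC1 and helps set cell volume, read 9.51, 9.40 and 9.53 with the AMPKα2 hairpin against 11.37, 11.35 and 11.07. The groups did not overlap, and Slc12a2 fell by 1.78 (SE 0.10, limma, adjusted p = 6.01e-08), with -1.18 under quantile scaling and -1.16 under loess scaling. Of all genes with a control mean between 11 and 12, the median change as deposited was -0.66. Slc12a4, the widely expressed potassium chloride cotransporter KCC1, read 7.35, 7.34 and 7.15 against 8.15, 8.19 and 8.22. It fell by 0.90 (SE 0.09), and its changes under quantile and loess scaling, -0.34 and -0.37, were smaller but passed, as did -1.12 under median centring. As deposited its change lay close to the median of -0.74 for all genes with a control mean between 8 and 9, which was -0.10 under loess scaling. Slc12a7, which encodes KCC4, read 7.98, 7.80 and 8.05 against 8.03, 7.95 and 7.96, with overlapping groups. Its change of -0.04 did not pass as deposited, was 0.59 and 0.56 under quantile and loess scaling and passed there, and was -0.26 under median centring, which passed the other way.

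In contrast, the remaining Slc12 genes at 6 or more rose. Slc12a5, the potassium chloride cotransporter KCC2 known from neurons, read 7.46, 7.49 and 7.41 against 6.32, 6.41 and 6.34 and rose by 1.09 (SE 0.08, limma, adjusted p = 3.63e-07). Slc12a9, which encodes a cotransporter-interacting protein, read 7.31, 7.38 and 7.47 against 6.34, 6.36 and 6.42 and rose by 1.01 (SE 0.08). Both rose in all 4 scalings, with the smallest changes, 0.88 and 0.79, under median centring. The Slc12a2 reading minus the Slc12a5 reading changed by -2.88 as deposited and by -2.41 under loess scaling. Their control means were 11.26 and 6.36. For all genes at 11 to 12 and at 6 to 7 the median changes as deposited were -0.66 and 0.19. The diuretic targets of the nephron were dim. Slc12a1, the loop diuretic target NKCC2 of the thick ascending limb, read 3.00, 2.94 and 3.15 against 2.96, 2.96 and 2.97 and did not pass under any of the 4 scalings. Slc12a3, the thiazide target NCC of the distal convoluted tubule, rose by 1.06 (SE 0.10) from a control mean of 4.77, and by 0.47 under loess scaling. Slc12a8 rose by 0.57 as deposited, with 0.01 under loess scaling.

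Of the phosphate carriers that most cells use, Slc20a1 fell, as most genes of its level did, and the direction of Slc20a2 was not settled. Those of the tubule brush border were dim and read higher, as most dim genes did. Slc20a1, which encodes PiT-1, a housekeeping sodium phosphate cotransporter and retroviral receptor, read 9.64, 9.85 and 9.47 with the AMPKα2 hairpin and 11.33, 11.34 and 11.33 in the control. The groups were well apart, and Slc20a1 fell by 1.68 (SE 0.10, limma, adjusted p = 1.05e-07), with -1.12 under quantile scaling, -1.08 under loess scaling and -1.90 under median centring. At control means between 11 and 12, 70.5% of all genes were lower as deposited. The median change there was -0.66 as deposited and -0.12 under loess scaling. Slc20a2, which encodes PiT-2, read 6.61, 6.18 and 6.74 against 6.67, 6.83 and 7.06, and the lowest control array lay below the highest AMPKα2 shRNA array. Its change of -0.35 (SE 0.15) passed narrowly (limma, adjusted p = 0.0472). It did not pass without AMPKα2 shRNA replicate 1 (-0.40) or 2 (-0.18), without control replicate 2 (-0.36) or 3 (-0.24), or under quantile or loess scaling, and its other probe set rose by 0.49. The Slc20a1 reading minus the Slc20a2 reading changed by -1.34 as deposited and by -0.76 under loess scaling. Their control means were 11.33 and 6.86. For all genes at 11 to 12 and at 6 to 7 the median changes as deposited were -0.66 and 0.19.

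All 3 Slc34 genes, which encode the type II sodium phosphate cotransporters, had control means under 5. Slc34a1, the main phosphate carrier of the proximal tubule brush border, read 5.75, 5.70 and 5.79 against 4.85, 4.87 and 4.91. Slc34a3, the other renal type, read 5.83, 6.08 and 6.01 against 4.93, 4.84 and 4.77, and Slc34a2, the type of lung and intestine, read 4.66, 4.37 and 5.10 against 3.96, 3.83 and 3.74. Each rose as deposited, Slc34a1 by 0.87 (SE 0.08), Slc34a3 by 1.13 (SE 0.09) and Slc34a2 by 0.87 (SE 0.16). So did most genes of their levels, 89.9% of all genes with a control mean between 4 and 5 and 82.6% of those under 4. For all genes with a control mean between 4 and 5 the median change was 0.79 as deposited and 0.21 under loess scaling, where Slc34a1 had 0.28 and Slc34a3 had 0.56. Slc34a2, at a control mean of 3.84, did not pass under loess scaling (0.37). All genes under 4 had a median change of 0.52 as deposited and 0.13 under loess scaling.

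Calcium exchangers differed between and within their families. Slc8a1, the sodium calcium exchanger NCX1, which lets calcium out of distal tubule cells, read 5.68, 5.55 and 5.44 with the AMPKα2 hairpin against 7.43, 7.62 and 7.56. It fell by 1.98 (SE 0.09, limma, adjusted p = 2.12e-08), and its change was -1.97 to -2.20 over the 4 scalings. Its other probe set, at a control mean of 4.60, rose by 0.60. Slc8a2 and Slc8a3, the exchangers NCX2 and NCX3 known from brain and muscle, stood just under 6 and rose by 1.07 each, and by 0.75 and 0.72 under loess scaling. Slc24a4, a potassium-dependent sodium calcium exchanger known from enamel and olfactory neurons, read 8.23, 8.08 and 8.51 against 6.16, 5.97 and 6.04. The rise of 2.21 (SE 0.11, limma, adjusted p = 3.46e-08) was the largest of the 55 as deposited and was 2.52, 2.50 and 2.00 under quantile scaling, loess scaling and median centring. The other probe sets of Slc24a4, at control means of 4.58 and 4.94, rose by 0.45 and 0.81, so the size of the rise differed between them. Slc24a3, a relative known from brain and smooth muscle, read 7.08, 7.15 and 7.10 against 6.51, 6.34 and 6.33 and rose by 0.72 (SE 0.08). The Slc24a4 reading minus the Slc24a3 reading changed by 1.496 as deposited and by 1.72 under loess scaling. Slc24a2, of retinal cones and brain, rose by 1.41 (SE 0.08) from 5.54, while its other probe set, at 2.84, did not pass, and Slc24a1, of retinal rods, rose by 0.79 as deposited but did not pass under loess scaling (0.19).

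**Figure D3:**
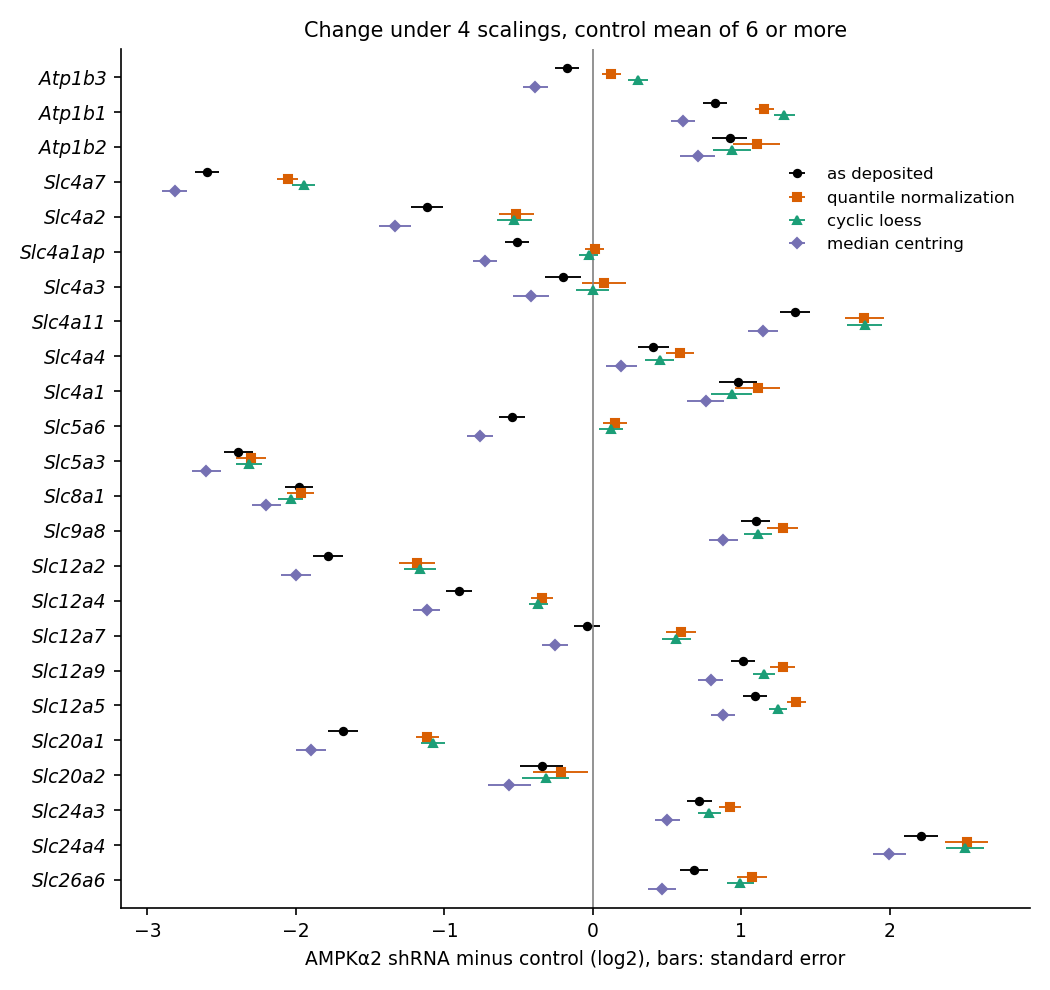
Log2 change from control to AMPKα2 shRNA (horizontal axis) of the 24 genes with a control mean of 6 or more under 4 scalings, with bars for the standard error from limma. Slc5a3 (-2.60 to -2.30) and Slc8a1 (-2.20 to -1.97) moved little with the scaling, while Slc5a6, Slc4a1ap, Slc12a7 and Atp1b3 had changes on both sides of 0.

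The sodium-coupled Slc5 family carries sugars, inositol, vitamins and iodide. Slc5a3, which encodes the myo-inositol carrier SMIT1 and is known to be induced by high salt in the kidney medulla, read 5.76, 5.46 and 5.48 against 7.88, 7.98 and 8.01. It fell by 2.39 (SE 0.10, limma, adjusted p = 8.82e-09), with -2.30, -2.31 and -2.60 under quantile scaling, loess scaling and median centring. Its other probe set, at a control mean of 4.37, rose by 0.38. Slc5a6, the multivitamin carrier for biotin and pantothenate, read 7.95, 8.11 and 8.03 against 8.49, 8.65 and 8.60. Its change of -0.55 (SE 0.09) as deposited was 0.15 and 0.12 under quantile and loess scaling, neither of which passed, so its direction followed the scaling.

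The glucose carriers of the proximal tubule were dim and read higher. Slc5a2, which encodes SGLT2, the target of the gliflozin drugs, read 6.62, 6.40 and 6.68 against 5.56, 5.42 and 5.33 and rose by 1.13 (SE 0.10). Slc5a1, which encodes SGLT1, read 6.003, 6.05 and 5.99 against 5.06, 5.12 and 4.78 and rose by 1.03 (SE 0.10). Under loess scaling these rises were 0.77 and 0.48, beside a median of 0.37 for all genes with a control mean between 5 and 6 and of 0.21 for those between 4 and 5. Slc5a12, a lactate carrier of the proximal tubule, rose by 1.49 (SE 0.08) and Slc5a5, the iodide carrier of the thyroid, by 1.22 (SE 0.08), from control means of 4.10 and 4.06, and both rose in all 4 scalings. The other probe set of Slc5a12 rose by 0.63. Slc5a11, an inositol carrier, and Slc5a7, the choline carrier of neurons, rose by 0.70 and 0.47 as deposited and did not pass in all 4.

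All 6 sodium proton exchangers of the Slc9 family read higher with the AMPKα2 hairpin, and 5 of them had control means under 6, where 84.6% of all genes were higher. Slc9a8, which encodes NHE8, an exchanger of the Golgi and of the immature tubule, was the one above 6. It read 7.07, 7.30 and 7.28 against 6.03, 6.08 and 6.25 and rose by 1.10 (SE 0.10, limma, adjusted p = 1.54e-06), with 0.88 to 1.28 over the 4 scalings. Slc9a2, which encodes NHE2, read 6.94, 7.01 and 7.10 against 5.58, 5.49 and 5.60 and rose by 1.46 (SE 0.08) and, under loess scaling, by 1.25. Slc9a3, which encodes NHE3, the main sodium proton exchanger of the proximal tubule brush border, read 4.28, 4.30 and 4.54 against 3.67, 3.81 and 3.85. Its rise of 0.60 (SE 0.10) as deposited lay near the median of 0.52 for all genes under 4, and its changes of 0.16 and 0.14 under quantile and loess scaling did not pass. Slc9a9, of endosomes, rose by 1.09 (SE 0.09) from 4.30, and its other probe set by 0.32. Slc9a4, of the gastric epithelium, rose by 0.51 from 3.20, and had no change when values under 4 were set to 4. Slc9a5, known from brain, read 5.57, 4.78 and 5.71 with the hairpin, the most uneven of the 55 genes, against 4.47, 4.34 and 4.38.

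Among the Slc26 anion exchangers 7 of 8 rose as deposited, 0 passed as lower, and 3 were higher in all 4 scalings. Of the 7 with a control mean under 6, 6 rose (85.7%), which is near the 84.6% of all genes of that level. Slc26a6, a chloride oxalate exchanger of the brush border, was the only one with a control mean of 6 or more. It read 7.69, 7.38 and 7.55 against 6.88, 6.86 and 6.84 and rose by 0.68 (SE 0.09, limma, adjusted p = 4.6e-05), by 1.07 under quantile scaling and by 0.47 under median centring. Slc26a1, a sulfate carrier of the basolateral membrane, read 6.80, 6.87 and 7.13 against 5.84, 5.68 and 5.76 and rose by 1.17 (SE 0.10) and in all 4 scalings. Slc26a4, which encodes pendrin, the chloride bicarbonate exchanger of intercalated cells, read 6.28, 6.40 and 6.22 against 5.58, 5.61 and 5.52 and rose by 0.73 (SE 0.08) and, under loess scaling, by 0.34. Slc26a8, of sperm, rose by 0.35 as deposited and did not pass under the other scalings. Slc26a2, Slc26a5 and Slc26a10, at control means of 4.01, 3.19 and 3.68, rose by 0.61, 0.46 and 0.28 as deposited but not in all 4 scalings, and Slc26a3, at 3.24, did not pass in any.

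As a class, the 31 genes under 6 could not be told from other dim genes. As deposited 27 rose, 0 fell and 4 did not pass, a share higher of 87.1% against 84.6% of all genes under 6, of which 88.7% passed in either direction. Of the 31, 28 did not overlap between groups, against 88.8% of all genes of that level. Among the 31, the 4 that did not pass were Atp1b4, Slc4a10, Slc12a1 and Slc26a3. In all 4 scalings 15 of the 31 were higher, 48.4% against 45.2% of all genes under 6, and 0 were lower against 4.02%. The count of 0 falls is that of limma at an adjusted p of 0.05, and all 31 changes had a sign above 0, so none was lower at an unadjusted p under 0.05 either. Their median change was 0.79 as deposited and 0.30 under loess scaling, beside 0.71 and 0.22 for all genes under 6. The values nearest to the boundary of 6 were control means of 6.06 for Slc24a4 and 6.08 for Slc4a1 above it and 5.89 for Slc26a8 and 5.76 for Slc26a1 below it.

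**Figure D4:**
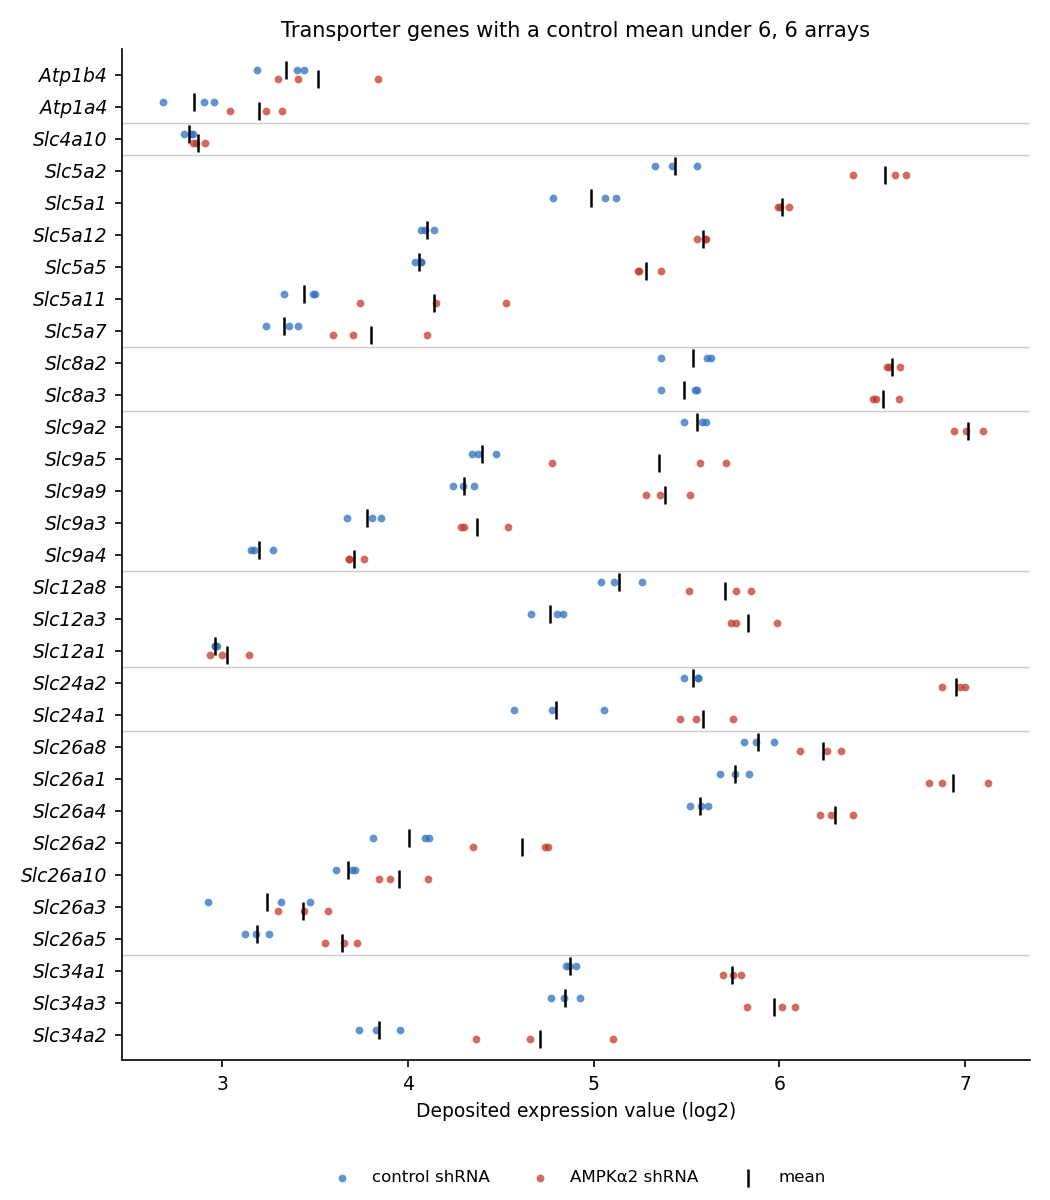
Deposited log2 values (horizontal axis) of the 31 transporter genes with a control mean under 6, grouped by family, with 1 point per array, blue for the 3 control and red for the 3 AMPKα2 shRNA arrays, and a black tick at each mean. The red means lie to the right of the blue ones for all 31 genes, and the points of both groups overlap for Atp1b4, Slc12a1 and Slc26a3.

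Of the 55 genes 15 were read by more than 1 probe set. In 10 of them all probe sets had the same sign, and in 5 (Slc4a4, Slc5a3, Slc8a1, Slc12a7 and Slc20a2) they did not. Probe sets of Slc4a4, Slc5a3 and Slc8a1 passed in both directions when all probe sets were tested together. In Slc5a3 and Slc8a1 the probe set that rose was the dim one, at control means of 4.37 and 4.60. With the mean of probe sets the change of Slc5a3 was -1.004 in place of -2.39 and that of Slc8a1 was -0.69 in place of -1.98, and both passed. The probe sets of Slc4a7 and of Atp1b1, all at control means above 8, shared a direction with different sizes. The other probe sets of Atp1b2, Slc24a3 and Slc24a4 also shared the direction of those used, but stood at control means of 4.49 to 4.94, where 89.9% of all genes rose with a median change of 0.79.

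**Figure D5:**
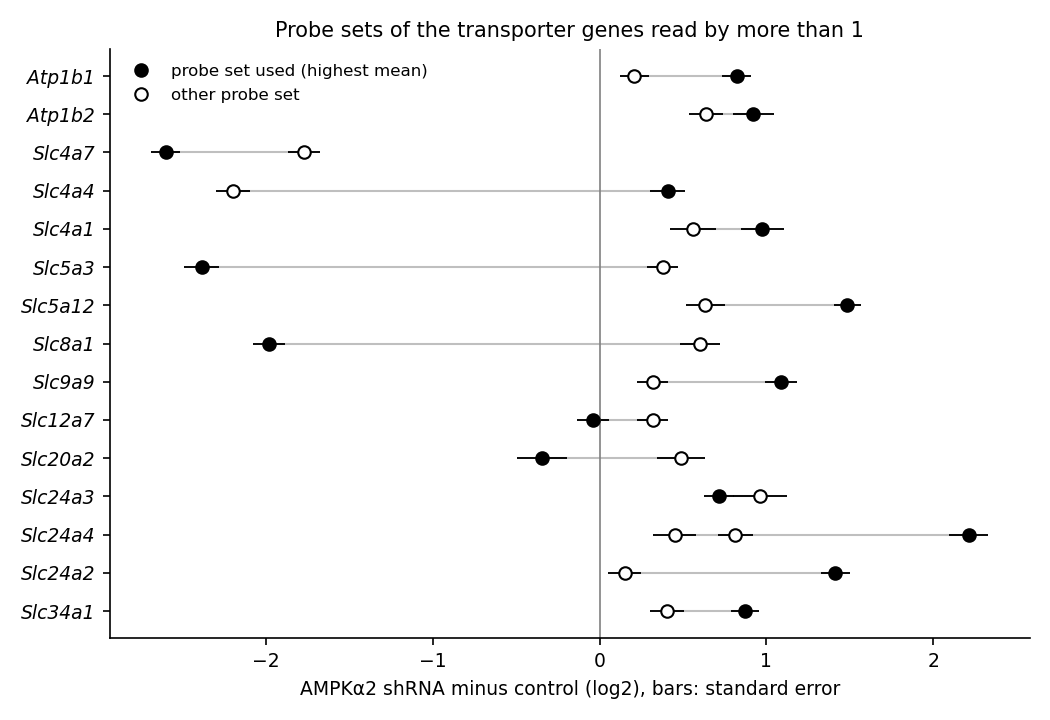
Log2 change from control to AMPKα2 shRNA (horizontal axis) of every probe set of the 15 transporter genes read by more than 1, with bars for the standard error; filled points are the probe sets used and open points the others. The points of Slc4a4 (0.41 and -2.20), Slc5a3 (-2.39 and 0.38) and Slc8a1 (-1.98 and 0.60) lie on both sides of 0.

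Genes that regulate or work with these carriers were described from a list of kinases, scaffolds, pump-associated FXYD proteins, carbonic anhydrases, channels and hormone receptors, of which 55 were measured. As deposited 34 rose and 19 fell, Fgfr1 and Nkain1 did not pass, and the median change was 0.55, beside 43.6% higher, 41.5% lower and a median of 0.05 over all genes. In all 4 scalings 20 were higher and 16 lower, where 25.5% and 26.4% of all genes were. The list was dimmer than the array, with a median control level of 5.45 against 6.99, so these shares are not of like genes. Of its 32 genes under 6, 31 rose and 1 fell as deposited (96.9% and 3.12%, against 84.6% and 4.02% of all genes under 6). In all 4 scalings 18 and 1 did so (56.2% and 3.12%, against 45.2% and 4.02%). Of its 23 genes at 6 or more, 3 rose and 18 fell as deposited (13% and 78.3%, against 18.3% and 64.5% of all genes at 6 or more). In all 4 scalings 2 and 15 did so (8.7% and 65.2%, against 13.4% and 40.3%). These 23 were brighter than all genes at 6 or more, with a median control level of 9.24 against 8.29. Brighter genes fell more often (31.1% of all genes at 6 to 7 and 82.6% at 9 to 10), so these shares are not of like genes either. Both kinases that phosphorylate the Slc12 cotransporters were among the largest changes of the list, in opposite directions, and most genes of their levels moved likewise. Of all genes, 80.8% were higher at a control mean of 5 to 6 and 82.6% lower at 9 to 10. The medians there were 0.81 and -0.90 as deposited, and 0.37 and -0.18 under loess scaling. Stk39, which encodes SPAK, rose by 1.37 (SE 0.11) from a control mean of 5.45, and Oxsr1, which encodes OSR1, fell by 1.496 (SE 0.10) from 9.34. Kinases upstream of both (Wnk) and their MO25 scaffolds (Cab39) were picked for this role after their values were seen, and their members differed. Wnk1 and Cab39, each by the brightest of its 5 and 2 probe sets, stood at control means of 10.46 and 9.26. They had changes of -1.37 and -1.31 and were lower in all 4 scalings. For all genes with a control mean between 10 and 11 the median change was -0.84 as deposited. Wnk2, at 4.55, rose by 0.60 as deposited and had 0.01 under loess scaling, and Cab39l, at 6.99, rose by 0.37 as deposited and by 0.67 under loess scaling but had 0.15 under median centring. By the brightest probe set, the other large falls of the list were those of Nr3c1 and Ahcyl1. Nr3c1, the glucocorticoid receptor gene, had -2.63 (SE 0.10). Ahcyl1, which encodes IRBIT, a partner of sodium bicarbonate cotransporters, had -1.75 (SE 0.09). The other probe set of Nr3c1 had a smaller change of -0.64, and those of Ahcyl1 had -0.94 and -1.06. With the mean of probe sets the changes were -1.63 for Nr3c1, -1.25 for Ahcyl1 and 1.21 for Stk39. Besides Stk39, the largest rises were those of Fxyd4 and Scnn1b. Fxyd4, a pump-associated protein of the collecting duct, rose by 1.37 (SE 0.15) from a control mean of 5.30. Scnn1b, a subunit of the epithelial sodium channel, rose by 1.30 (SE 0.08) from 6.28. Under loess scaling the changes by the brightest probe set were 1.09 for Stk39, -0.79 for Oxsr1, -2.05 for Nr3c1 and -1.07 for Ahcyl1. They were 1.005 for Fxyd4 and 1.47 for Scnn1b.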

How the data were processed

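Expression in 6 cultures was deposited by the authors as log2 values, 1 per probe set and array, from 2.37 to 13.84. Per the labels' protocols, biotin-labelled cRNA was made from Trizol-extracted total RNA. Background correction, probe summary and normalization are not given in the sources used here, so signal over background is unknown. Of 31099 probe sets, 57 array controls were left out, and 20826 of the rest carried 1 gene symbol in the platform annotation. RefSeq (GRCr8) matched 20758 of these by Entrez identifier and changed 0 symbols. The part of the narrower spread on the AMPKα2 shRNA arrays in the changes was not tested.

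The 2-sided group test was that of limma 3.58.1 (lmFit and eBayes, R 4.3.3) over all 14217 genes, with Benjamini-Hochberg adjustment, a threshold of 0.05 and no covariate. Probe sets were tested over all probe sets. The steps were tested on simulated data. Members and lists were chosen with earlier results of these data known. All members at 6 or more, members under 6 passing in all 4 scalings, 11 tubule carriers chosen for their role, the 2 members nearest to 6 on each side, the 3 largest rises and falls of the partner list kept in all 4 scalings, and Prkaa2 are named by rule. Other members were named afterwards to account for all 55. Alternatives were the 4 scalings (cyclic loess with 3 iterations), the mean of probe sets, removal of the lowest 25% of genes, a floor of 4, a trended robust variance, the replicate block, each array left out, a threshold of 0.01 and other splits by level.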

Additional observations from a re-analysis of the deposited data

How the results depend on the processing

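The counts of the 24 members at a control mean of 6 or more, 11 higher and 10 lower, were 12 and 7 under quantile scaling, 13 and 7 with loess, and 10 and 13 with median centring. Of all 8797 genes at that level, 3355 were higher and 3610 lower under quantile scaling. With loess 3272 were higher and 3802 lower, and with median centring 1181 and 6486. Among members the count higher was 6 with the mean of probe sets, by which genes were then also split, with 31 higher under 6. Shares over all genes were not counted for that split. The members' count higher was 18 when genes were split by their mean over all 6 arrays. It was 20 when split at a control mean of 5 and 1 when split at 7, since most of these rises lay between 6 and 7. Under 6, 27 of the 31 members were higher as deposited, 17 under quantile scaling, 15 under loess scaling and 11 without the lowest 25% of genes, where fewer genes were tested, and 1 was lower when split at 7. Of all 5420 genes under 6, 4587 were higher as deposited, 2870 under quantile scaling and 2450 under loess scaling. Leaving out each array gave 11 higher and 9 to 10 lower at 6 or more, and 26 to 27 higher and 0 lower under 6. The replicate block gave 11 and 10 at 6 or more and 27 and 0 under 6 and changed no call of a named gene. Arrays of the same number correlated at -0.02, 0.01 and -0.10 in their deviations, and those of different number at -0.09 to 0.10. No pairing by number was seen, but 3 arrays per group cannot exclude one.

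Of 741 values of 50 named genes under 15 alternatives, 698 kept direction and side of the threshold, 17 lost and 11 gained significance, and 15 changed sign. Sign changes under quantile scaling were Atp1b3 (0.12), Slc12a7 (0.59), Slc4a1ap (0.0124), Slc4a3 (0.0752), Slc5a6 (0.15) and Slc12a1 (-0.13), and under loess scaling Atp1b3 (0.30), Slc12a7 (0.56), Slc5a6 (0.12) and Slc12a1 (-0.15). Under median centring Slc12a1 had -0.15. With the mean of probe sets Slc12a7 had 0.14, Slc20a2 0.0709 and Slc4a4 -0.90, and leaving out arrays gave Slc12a7 -0.0907 to 0.0303, with the sign turned without AMPKα2 shRNA replicate 2. Beyond the scalings' own construction and the differing probe sets, the cause was not tested. The number of arrays limits precision. Another background correction and the slide as a block, which need scanner output, were not run.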
